A study of Mus musculus with 8 samples.

Results

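The genes described here encode the nuclear subunits of respiratory complexes I, II and III, cytochrome c and the mitochondrial ATP synthase. They were chosen by symbol from 23360 genes measured in inguinal white adipose tissue, a fat depot under the skin of the groin. Symbols beginning with Nduf (apart from the Ndufaf assembly factors), Uqcr or Atp5 were taken, together with Sdha, Sdhb, Sdhc, Sdhd, Cyc1 and Cycs, and no measured value entered the choice. The rule found 70 genes: 38 for complex I, 4 for complex II, 10 for complex III with cytochrome c, 17 for ATP synthase, and 1 annotated pseudogene, Ndufs5-ps, which was kept out of the summaries of each complex. Cytochrome oxidase and the subunits encoded by mitochondrial DNA were not analysed here.

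The study deposited RNA sequencing of 8 libraries of inguinal fat from mice aged 6 weeks. The 4 control libraries came from Lsd1 floxed mice, and the 4 knockout libraries from Lsd1 floxed mice that also carried Adipoq-Cre, a transgene active in adipocytes, so that other cells of the fat pad keep the gene. No group carried Adipoq-Cre alone, so Cre expression and the deletion of Lsd1 cannot be told apart. The labels do not say that each library came from a separate mouse, so p-values measure only how far these samples spread, and that spread may be technical. Libraries are named here control 1 to 4 and knockout 1 to 4, in the order of their records.

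Complex I takes electrons from NADH, and complex II takes them from succinate, of which it is also the tricarboxylic acid cycle enzyme. Both pass them to coenzyme Q, from which complex III passes them to cytochrome c, a small mobile carrier in the intermembrane space. ATP synthase lets protons back through a rotating ring of c subunits and makes ATP. White adipocytes hold fewer mitochondria than brown and beige adipocytes, in which the respiratory chain is abundant and drives heat production.

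Values are read counts as the authors scaled them, which are equal to a whole number of reads times 1 factor per library. The libraries held 25671837 to 32442724 such reads. Kdm1a, which encodes Lsd1, had 699, 685, 799 and 735 in the controls and 566, 578, 547 and 581 in the knockouts, so the groups did not overlap. The difference of means was -22.1% of the control mean (log2 fold change -0.36, SE 0.075, limma adjusted p = 0.0498, exact two-sided permutation p = 0.0286, the smallest that 70 assignments allow). General adipocyte markers were abundant in every library, with a mean log2 level of 14.78 to 15.41. Markers of B cells, immune cells of the lymph node in this fat pad, had positive fold changes in 10 of 10 genes (median 0.31), with 0 called and 0 at an unadjusted p under 0.05 in limma, and a median of -0.07 without controls 1 and 2.

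Some subunits are made from several genes or have near copies elsewhere in the genome, which bears on what their values can show. The clearest case is the c subunit of the ATP synthase ring, which has 3 genes, Atp5g1, Atp5g2 and Atp5g3. Their proteins of 136, 146 and 141 residues differ at the start, which holds the mitochondrial targeting signal, and share their last 78 residues. The 60 bases below encode the same 20 residues within that shared part in each gene, in GRCm38.p6, all on the minus strand. Capitals mark the bases that are unlike Atp5g3, 16 in Atp5g1 and 15 in Atp5g2. The stretches lie at chr11:96073585-96073644 for Atp5g1, chr15:102665116-102665175 for Atp5g2 and chr2:73909246-73909305 for Atp5g3.
Atp5g1: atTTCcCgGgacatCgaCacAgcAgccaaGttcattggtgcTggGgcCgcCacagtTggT
Atp5g2: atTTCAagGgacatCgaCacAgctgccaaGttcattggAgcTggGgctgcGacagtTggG
Atp5g3: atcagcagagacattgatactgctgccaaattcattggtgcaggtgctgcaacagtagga

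The Atp5g2 stretch is also found unchanged in 2 annotated pseudogenes, Gm10175 and Gm10231. Over the whole Atp5g2 transcript, 99.7% of all runs of 50 bases occur in another annotated gene, against 49.8% for Atp5g1 and 0 for Atp5g3. Per kilobase of transcript, the mean value over the 8 libraries was 7612 for Atp5g3, 215 for Atp5g1 and 19.0 for Atp5g2. How the authors' counting treated reads that match several places is not given in the sources used here, so the levels of Atp5g1 and Atp5g2 are uncertain.

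Across the 69 subunit genes, 39 shared at least 1 run of 50 bases with another annotated gene, a neighbour with overlapping exons or a near copy, and 30 shared none. The median level per kilobase was 2831 over the 43 genes with a share of at most 10%, 1948 over 12 genes with 10 to 30%, and 1109 over 11 genes with 30 to 60%. The other 3, all above 60%, were Atp5g2, Atp5l (90.5%, 95.7 per kilobase) and the complex I accessory gene Ndufb4 (84.2%, 42.5 per kilobase). Low levels of these genes can therefore not be read as low expression. Ndufs5 is a related case, since its row held a mean of 370 ± 38.6 (SD, n = 4) in the controls, below the 1220 ± 173 (SD, n = 4) listed for its pseudogene Ndufs5-ps, and the rows of this pair are uncertain. Exons of 27 of the 69 genes overlap exons of another gene, and without a stated strand setting the reads of such pairs cannot be told apart.

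**Figure D1:**
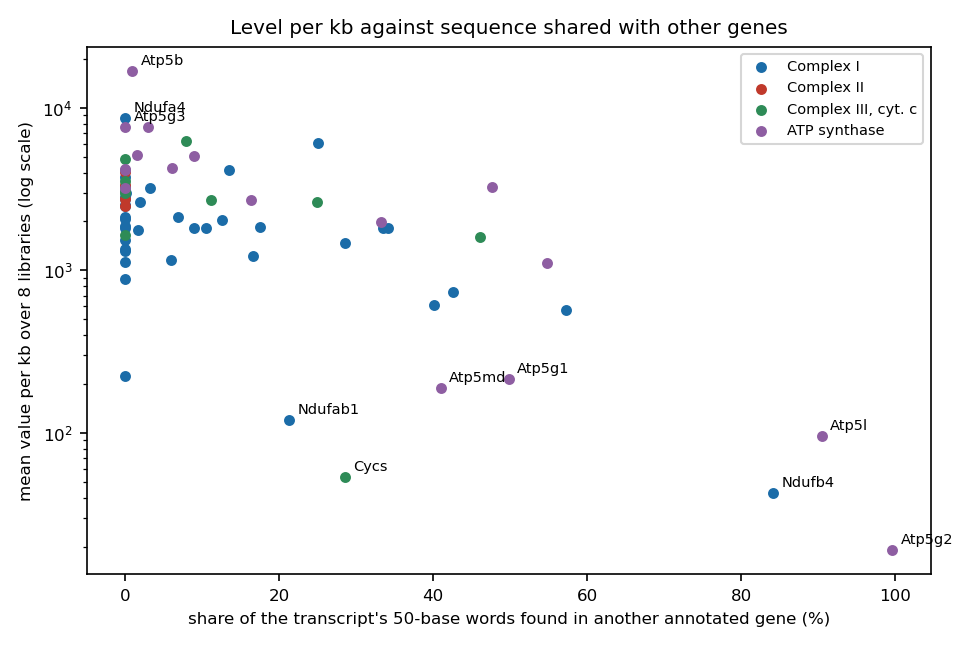
Mean value per kilobase of transcript over 8 libraries (log scale) for each of 69 subunit genes, against the percentage of the transcript's 50-base words that occur in another annotated gene. The 3 genes above 60%, Atp5g2, Atp5l and Ndufb4, have levels of 19.0, 95.7 and 42.5 per kilobase, below the median of 2831 for genes with at most 10%.

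Promoters of respiratory genes are known for binding sites of NRF1, of the ETS factor GABP (also called NRF2), of YY1 and of the estrogen-related receptors (ERR). Promoter entries of RefSeq (GRCm38.p6) were matched to 57 of the 70 genes, and 53 subunit genes had an entry within 200 bases of the start of their transcript. Windows of 300 bases, 250 before and 50 after the annotated start, were searched on either strand. The comparison promoters were the first listed entry of each tested coding gene, with no limit on distance. The shares were therefore not drawn in the same way. The NRF1 letters CGCATGCGC occurred in 8 of 53 (15.1%) and in 3.48% of 10816 promoters of tested coding genes. The ETS letters CCGGAAG occurred in 13 (24.5%, against 17.0%), the YY1 letters AAGATGGC in 7 (13.2%, against 4.45%) and the ERR letters CAAGGTCA in 4 (7.55%, against 0.999%). All 7 YY1 matches lay in complex I genes, of which 31 were searched, and all lay in the 50 bases after the start. The NRF1 matches were spread over complex I (2), complex III with cytochrome c (3) and ATP synthase (3). A match is a run of letters and not a measured binding site.

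The promoters of Cycs, the textbook NRF1 target, and of Atp5g3, the c-subunit gene with unique sequence, are shown because they carry 2 different motifs. Each run is the 250 bases before the annotated start, 5′ to 3′ on the minus strand, from RefSeq (GRCm38.p6), at chr6:50566570-50566819 for Cycs and chr2:73911327-73911576 for Atp5g3. Capitals mark the NRF1 letters in Cycs and the ERR letters, here as their reverse complement TGACCTTG, in Atp5g3. Part of the Cycs window is also an exon of the antisense noncoding gene 5430402O13Rik.
Cycs: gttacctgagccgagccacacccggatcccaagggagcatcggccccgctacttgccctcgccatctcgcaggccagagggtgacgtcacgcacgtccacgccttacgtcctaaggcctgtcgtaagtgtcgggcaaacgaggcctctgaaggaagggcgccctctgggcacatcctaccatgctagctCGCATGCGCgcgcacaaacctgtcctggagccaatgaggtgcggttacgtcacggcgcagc
Atp5g3: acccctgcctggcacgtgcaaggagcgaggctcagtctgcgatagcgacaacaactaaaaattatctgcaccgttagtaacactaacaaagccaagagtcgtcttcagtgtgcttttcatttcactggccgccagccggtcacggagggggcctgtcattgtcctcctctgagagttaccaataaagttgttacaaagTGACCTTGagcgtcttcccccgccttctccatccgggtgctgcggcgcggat

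The comparison of genotypes asked whether transcripts of the respiratory chain and of ATP synthase differed between fat pads with and without Lsd1 in adipocytes. None of the 70 genes passed an adjusted p of 0.05 in limma, while 239 of all 14591 genes tested did (1.64%). All 70 passed the filter on low values and were tested. The edgeR, DESeq2 and limma-voom tests on recovered reads likewise called 0 of the 70. At an unadjusted p under 0.05, limma found 2 of 70, Sdha (lower) and Atp5g1 (higher), against 14.5% of all genes. In 0 of 70 did the control and knockout libraries separate without overlap, which they did in 8.65% of all genes.

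The log2 fold changes of the 69 subunit genes ran from -0.35 (Sdha) to 0.31 (Atp5g1), with 38 negative and 31 positive. Their median was -0.04, and that of all genes tested was 0.02. The 95% interval of the fold change lay within 1.5-fold in either direction for 61 of 69 genes and within 2-fold for all 69. The widest bounds were -0.84 (Atp5g2) and 0.79 (Ndufb4) on the log2 scale. In whole tissue, fewer cells of a type and less RNA per cell cannot be told apart.

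**Figure D2:**
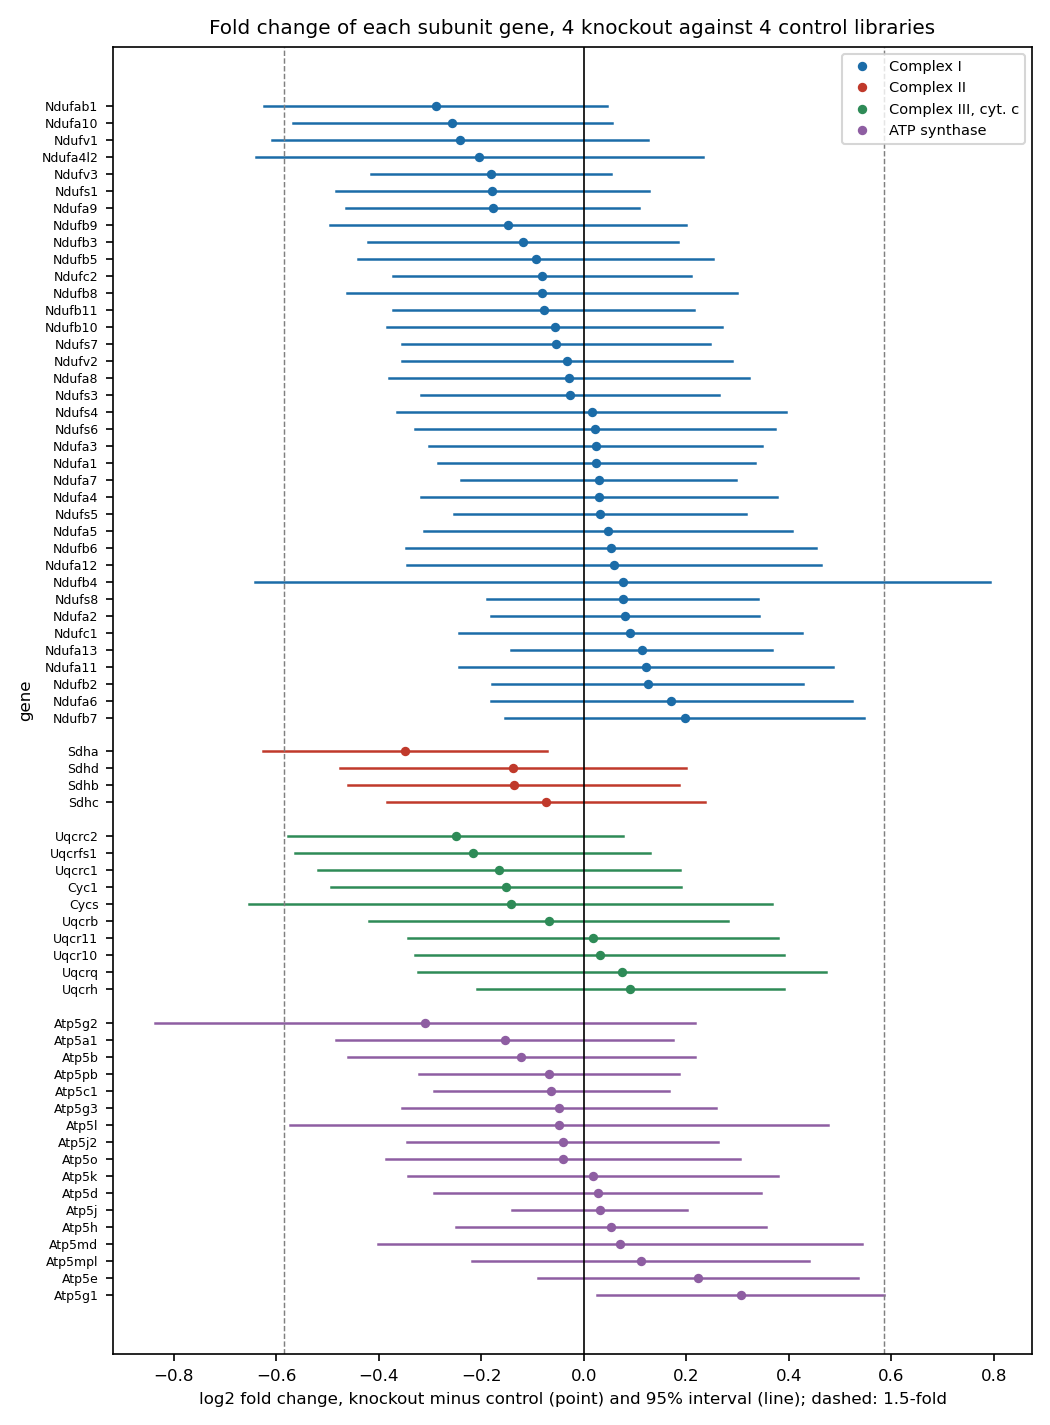
Log2 fold change (knockout minus control, point) and its 95% interval (line) from limma for each of 68 subunit genes, by complex, with 4 libraries a group. All but the intervals of Sdha and Atp5g1 include 0, and 60 of the 68 lie between the dashed lines at 1.5-fold.

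Complex I showed no common direction. Of its 38 genes, 19 had a negative and 19 a positive fold change, with a median of -0.01 and a range of -0.29 (Ndufab1) to 0.20 (Ndufb7). Its mean log2 level was 10.27, 10.49, 10.002 and 10.21 in the controls and 9.97, 10.23, 10.53 and 10.12 in the knockouts, so that both groups held high and low libraries.

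The 7 nuclear core subunits of complex I carry the flavin, the iron-sulfur clusters and much of the coenzyme Q site. Ndufv1, which binds NADH and the flavin, had values of 3750, 4964, 2920 and 3385 in the controls and 2616, 3321, 3702 and 2931 in the knockouts. Control 2 was the highest and knockout 1 the lowest, and the groups overlapped (log2 fold change -0.24, SE 0.164, limma adjusted p = 0.545). Ndufs1, the largest iron-sulfur subunit, had 3703, 3846, 2524 and 3003 in the controls and 2701, 3069, 3101 and 2557 in the knockouts, with control 3 the lowest of all 8. Its log2 fold change was -0.18 (SE 0.137, limma adjusted p = 0.597).

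Other core genes lay closer to 0. Log2 fold changes were -0.03 for the iron-sulfur subunit Ndufv2, -0.03 for Ndufs3, -0.05 for Ndufs7, which carries the last cluster before coenzyme Q, and 0.08 for the iron-sulfur subunit Ndufs8. The core had a median of -0.05 and the 31 other complex I genes one of 0.02. The mean log2 level of the core exceeded that of the others by 0.97, 0.96, 0.91 and 0.90 in the controls and by 0.94, 0.88, 0.77 and 0.85 in the knockouts, and these ranges overlapped.

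Several complex I genes have other roles as well. Ndufab1 encodes the mitochondrial acyl carrier protein, which also serves fatty acid and lipoate synthesis. Its values were 308, 291, 207 and 262 in the controls and 195, 219, 262 and 195 in the knockouts, with controls 3 and 4 inside the knockout range (log2 fold change -0.29, SE 0.15, limma adjusted p = 0.425). Exons of Ndufab1 overlap those of Gm44986 over 269 bases. The accessory subunit Ndufa10 came next, at -0.26 (SE 0.139, limma adjusted p = 0.446).

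Ndufa4, now placed with cytochrome oxidase rather than complex I, had the highest level per kilobase of the genes named Nduf, 8612 per kilobase. Its values were 4340, 5304, 3452 and 3864 in the controls and 3452, 4392, 5265 and 4174 in the knockouts, with a log2 fold change of 0.03. Its paralogue Ndufa4l2, which is induced by hypoxia, was at 223 per kilobase and ranged from 201 to 263 in the controls, with knockouts 1, 2 and 4 below and knockout 3 (281) above all of them (log2 fold change -0.20, SE 0.195). Without knockout 3 its log2 fold change was -0.39 (limma adjusted p = 0.231, the lowest of the 70 genes in that fit). Without these 2 genes the complex I median was again -0.01. At the other end of complex I, the accessory subunit Ndufb7 had a log2 fold change of 0.20 (SE 0.157), with knockout 3 at 1924 and the other 7 libraries between 1039 and 1350.

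All 4 genes of complex II had a negative fold change, with a median of -0.14. Leaving out 1 library moved this median between -0.24 (without control 3) and -0.05 (without control 2), through -0.23 without knockout 3 and -0.06 without knockout 1, and without controls 1 and 2 together it was 0.03. Sdha encodes the flavoprotein that holds the succinate site. Its values were 13709, 15422, 10473 and 12122 in the controls and 9515, 10691, 10407 and 9667 in the knockouts. The knockouts lay close together and 3 of them were below every control, while knockout 2 was above control 3. The difference of means was -22.1% of the control mean (log2 fold change -0.35, SE 0.124, unadjusted p = 0.0190, limma adjusted p = 0.238). Over 24 other settings the log2 fold change of Sdha ran from -0.44 to -0.16 and its adjusted p from 0.0786 (DESeq2) to 0.791. The gene lies at chr13:74322255-74350240 and shares no run of 50 bases with another annotated gene.

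The other subunits of complex II overlapped widely. Sdhb, the iron-sulfur subunit, had 3804, 4778, 2993 and 3475 in the controls and 2910, 3529, 3904 and 3226 in the knockouts. Sdhd, a membrane anchor, had 4002, 3902, 2820 and 3339 in the controls and 2670, 3288, 4040 and 2830 in the knockouts. Sdhc, the other anchor, ranged from 2424 to 3617 in the controls and from 2481 to 3384 in the knockouts. Their log2 fold changes were -0.14, -0.14 and -0.07 in that order (SE 0.144, 0.151 and 0.139).

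The place of Sdha within complex II was also compared library by library. The log2 ratio of Sdha to the mean of Sdhb, Sdhc and Sdhd was 1.98, 1.92, 1.94 and 1.86 in the controls and 1.83, 1.73, 1.47 and 1.75 in the knockouts. The groups did not overlap, and their means were 1.92 ± 0.048 and 1.69 ± 0.157 (SD, n = 4 each). This ratio was chosen after the values were seen and was not tested. Knockout 3 had the lowest ratio. The Sdha transcript is the longest of the 4, at 2859 bases against 1074 to 1231, which bears on the relation to length given below.

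Complex III with cytochrome c had a median of -0.11, with 6 genes negative and 4 positive. Leaving out 1 library gave -0.22 (without knockout 3) to 0.03 (without knockout 1), with -0.21 without control 3, -0.03 without control 1 and -0.01 without control 2, and it was 0.12 without controls 1 and 2. Uqcrc2, a core protein, had 6364, 6183, 4184 and 4916 in the controls and 4122, 4843, 5120 and 3963 in the knockouts. Controls 1 and 2 were above all knockouts and controls 3 and 4 within their range (log2 fold change -0.25, SE 0.146, limma adjusted p = 0.485). Exons of Uqcrc2 overlap those of Pdzd9 over 504 bases. Uqcrfs1, the Rieske iron-sulfur protein, had 4795, 5023, 3229 and 3883 in the controls and 3117, 3728, 4342 and 3280 in the knockouts, a log2 fold change of -0.22 (limma adjusted p = 0.569).

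The log2 fold changes of the core protein Uqcrc1 and of cytochrome c1 (Cyc1) were -0.17 and -0.15. At the other end were the small subunits Uqcrq (0.08) and Uqcrh, the hinge protein near cytochrome c1 (0.09). Uqcrh had the highest level per kilobase of complex III, 6258 against 3568 for Uqcrc1. The log2 ratio of Uqcrc2 to Uqcrq was 1.31, 1.03, 1.16 and 1.10 in the controls and 1.003, 0.98, 0.58 and 0.74 in the knockouts, without overlap. This ratio too was chosen after the values were seen.

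Cycs, the somatic cytochrome c gene whose promoter is printed above, had 209, 195, 139 and 152 in the controls and 101, 175, 217 and 151 in the knockouts. It had the widest range of the 65 genes with a mean value of at least 100, with the highest library 2.14 times the lowest, and both extremes were knockouts. The log2 fold change was -0.14 with an SE of 0.228. The row listed only 53.6 per kilobase, and 28.5% of its runs of 50 bases occur in other annotated genes, so this level is uncertain.

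ATP synthase had a median log2 fold change of -0.04, with 9 genes negative and 8 positive. Atp5b, which encodes the catalytic beta subunit, had the highest level per kilobase of all 69 genes, 16858, followed within the F1 head by alpha (Atp5a1, 7633), gamma (Atp5c1, 4247), delta (Atp5d, 4189) and epsilon (Atp5e, 4147). In the assembled enzyme alpha and beta are present in several copies and the others once. Atp5b values were 33875, 40746, 27056 and 30853 in the controls and 26766, 31925, 33389 and 28799 in the knockouts. Atp5a1 values were 22208, 22817, 15476 and 18015 in the controls and 15663, 18261, 19795 and 16268 in the knockouts. Control and knockout values interleaved for both genes, with log2 fold changes of -0.12 and -0.15 (limma adjusted p = 0.758 and 0.682).

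Log2 fold changes along the F1 stalk were -0.06 for gamma, 0.03 for delta and 0.22 for epsilon. Atp5e had 1783, 1576, 1216 and 1777 in the controls and 1780, 1609, 1779 and 2215 in the knockouts, so that knockout 4 was highest and control 3 lowest (SE 0.139, limma adjusted p = 0.511). Atp5j, a coupling factor of the stator, was the steadiest of the 65 genes, with the highest library 1.19 times the lowest. Its exons overlap those of Gabpa over 397 bases.

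The c-subunit genes differed in sign. Atp5g1 had 146, 146, 178 and 126 in the controls and 171, 184, 202 and 178 in the knockouts. Control 3 lay within the knockout range, and the other controls lay below every knockout (log2 fold change 0.31, SE 0.125, unadjusted p = 0.0348, limma adjusted p = 0.303). Atp5g3, the c-subunit gene with the highest listed level per kilobase, had 6280, 5344, 5065 and 5297 in the controls and 4527, 5315, 6946 and 4708 in the knockouts (log2 fold change -0.05, SE 0.137). Atp5g2 was listed at 11.4 to 16.2 in the controls and at 8.99 to 12.5 in the knockouts, near the lower limit of the values tested. The log2 ratio of Atp5g1 to Atp5g3 was -5.20 ± 0.273 in the controls and -4.84 ± 0.180 in the knockouts (SD, n = 4 each), and the ranges overlapped.

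The inhibitor that stops ATP synthase from running backwards, encoded by Atpif1, falls outside the naming rule and was given for comparison. It had 406, 410, 401 and 395 in the controls and 435, 472, 603 and 513 in the knockouts. The groups did not overlap, but the gene did not pass the test (log2 fold change 0.32, SE 0.104, limma adjusted p = 0.195). Exons of Atpif1 overlap those of Gm12999 over 485 bases.

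**Figure D3:**
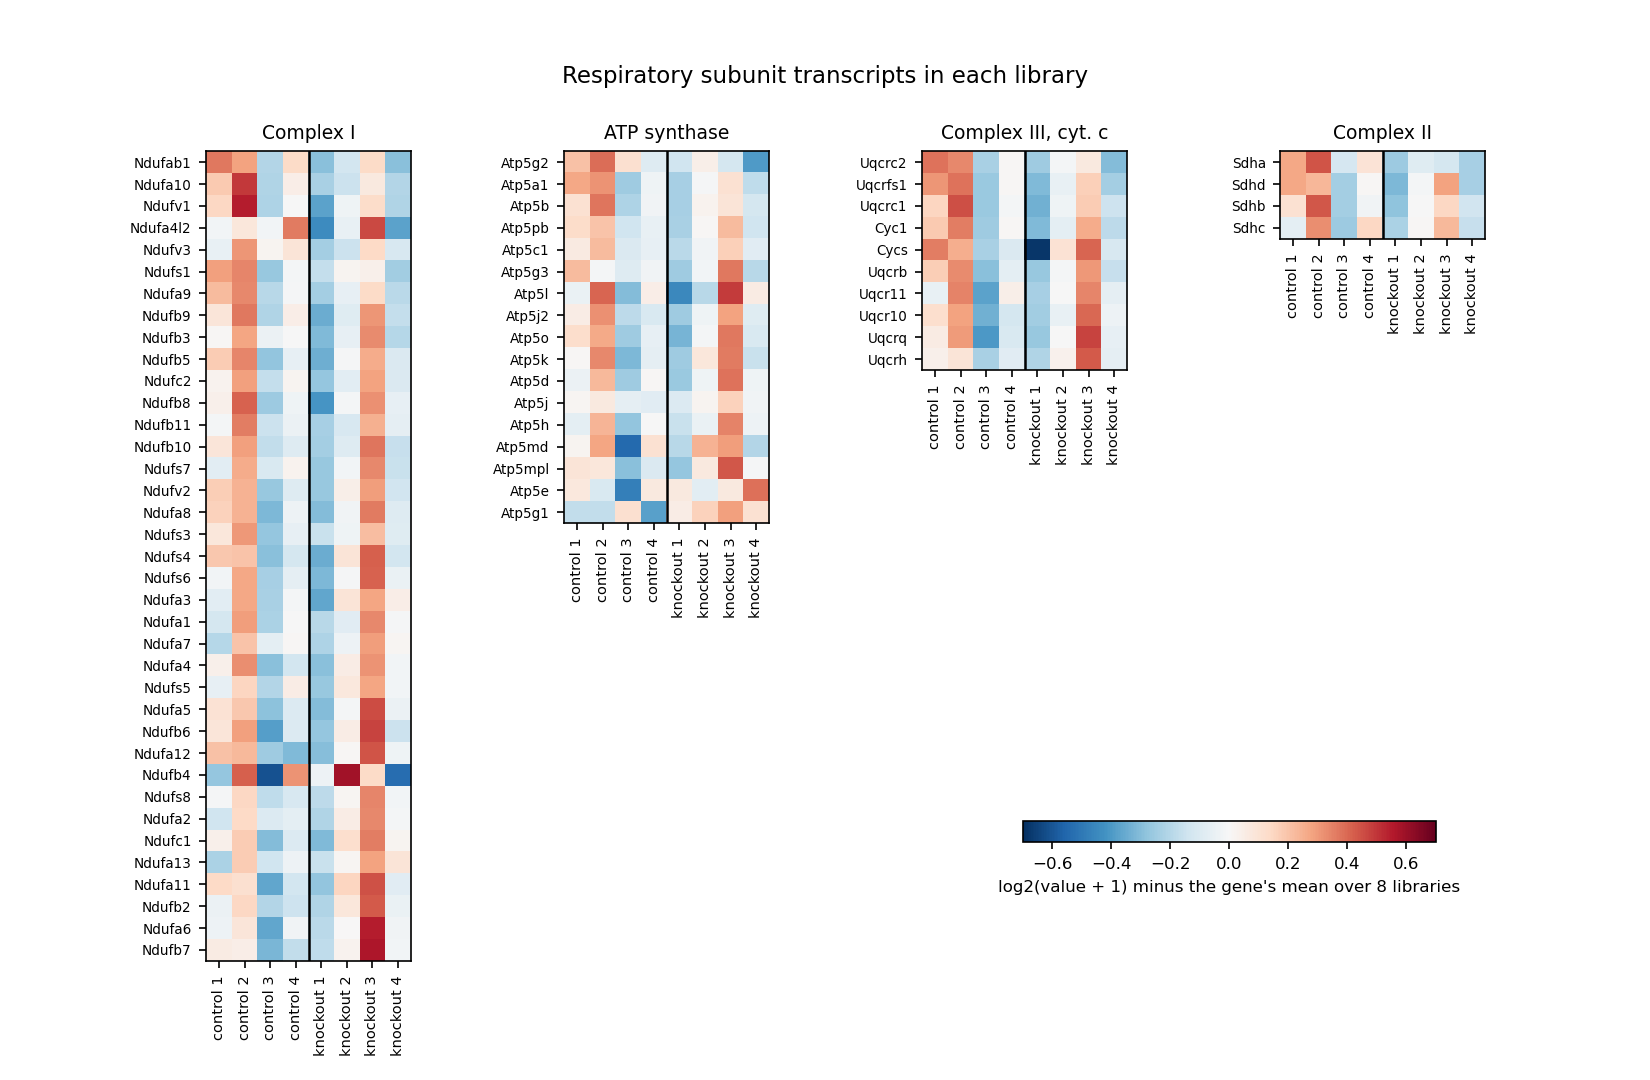
Colour gives log2(value + 1) of 68 subunit genes (rows, ordered by fold change within each complex) in each library (columns, controls left of the line) minus the gene's mean over the 8 libraries. Red columns are control 2 and knockout 3, which were the 2 highest libraries for 47 of all 69 genes, and the bluest are knockout 1 and control 3.

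Libraries of the same genotype differed more than the genotypes did. Averaged over the 69 genes, the mean log2 level was 10.52, 10.71, 10.22 and 10.42 in the controls and 10.20, 10.45, 10.73 and 10.34 in the knockouts. The control SD was 0.204 and the knockout SD 0.227, against a difference of means of -0.04. Knockout 3 was the highest library for 39 of 69 genes and control 2 for 26, while knockout 1 was the lowest for 41 and control 3 for 23. The highest of the 8 libraries was a median of 1.57 times the lowest, over the 65 genes with a mean of at least 100, and 1.43 times within controls and 1.48 times within knockouts.

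This shared order ran through complexes I and III and ATP synthase alike. In each of them knockout 3 and control 2 held the 2 highest places, followed by control 1, knockout 2, control 4 and knockout 4. Complex II differed at the top, with control 2 ahead of control 1 and knockout 3 behind both. A reference list of 12 other mitochondrial genes showed a similar order, with knockout 3 highest (mean log2 level 11.03) and knockout 1 lowest (10.61). Most of them encode proteins of the outer membrane or matrix, but Phb, Phb2 and Immt encode proteins of the inner membrane.

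**Figure D4:**
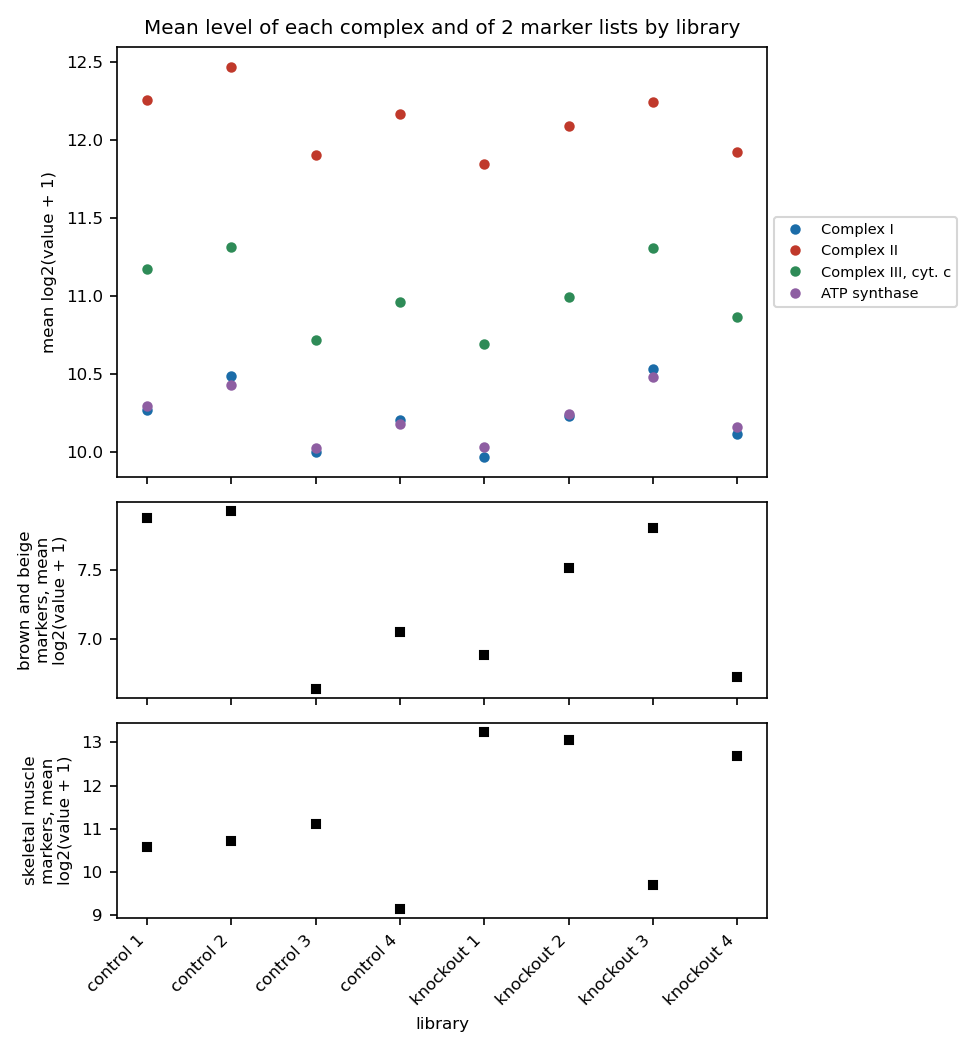
Mean log2(value + 1) over the genes of each complex (top), over 12 brown and beige adipocyte markers (middle) and over 14 skeletal muscle markers (bottom), 1 point per library. Controls 1 and 2 and knockouts 2 and 3 are the 4 highest libraries for the brown and beige markers and for complexes I, III and ATP synthase, and the muscle markers are high in knockouts 1, 2 and 4.

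The mean level of brown and beige adipocyte markers moved with the subunit genes across libraries. Their mean log2 level was 7.88, 7.93, 6.64 and 7.06 in the controls and 6.89, 7.52, 7.80 and 6.72 in the knockouts. The 4 highest libraries, controls 1 and 2 and knockouts 2 and 3, were also the 4 highest for the mean of the 69 subunit genes. The uncoupling protein gene Ucp1, the defining brown and beige marker, had 3189, 1639, 384 and 756 in the controls and 167, 1370, 4732 and 447 in the knockouts. Single markers did not all follow the mean. Slc27a2 was lower in every knockout than in any control, with 18.6 in knockout 3 and 40.6 in control 3 (log2 fold change -2.41). DESeq2 called this gene and limma did not (adjusted p = 0.108). Of the 11 markers tested, 5 had negative fold changes, and the median was 0.03. With the mean level of the 12 brown and beige markers as a covariate, the median log2 fold change of the 70 genes was 0.02, and that of all genes was 0.02. Limma called 0 of the 70, with a lowest adjusted p of 0.128 (Sdha). In that fit 7 of them had an unadjusted p under 0.05, against 2 without the covariate.

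Markers of skeletal muscle, a tissue rich in mitochondria, differed between the libraries in another way. The mean log2 level of 14 muscle genes was 10.58, 10.71, 11.10 and 9.13 in the controls and 13.25, 13.05, 9.69 and 12.69 in the knockouts, and none of the 14 was at 0 in all libraries. All 14 had positive fold changes (median 2.05). Limma and edgeR called 0 of them, and DESeq2 called 5, among 776 of all genes. In limma, 9 had an unadjusted p under 0.05, a rule by which 8.84% of all genes were higher. Without knockout 3, limma called 12 of the 14 (median 2.88), among 449 of all genes. Their summed value ran from 9924 to 42056 in the controls and from 14513 to 215840 in the knockouts. Knockout 3, the highest library for the subunit genes, was the knockout with the least muscle signal, and knockout 1, the lowest, had the most. With the muscle level as a covariate the median of the 70 genes was 0.18, that of all genes 0.01, and limma again called 0 of the 70. General adipocyte markers had a mean log2 level of 15.07 to 15.41 in the controls and 14.78 to 14.90 in the knockouts. Of these 12 genes 11 had negative fold changes. Limma called 1 (Cidec), edgeR 1 and DESeq2 6, among 239, 218 and 776 of all genes in that order. At an unadjusted p under 0.05 in limma, 5 were lower, against 5.68% of all genes. The part of these markers in the values of the subunit genes was not tested.

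The balance of signs depended on single libraries. Without knockout 3, 63 of the 70 genes had a negative fold change and the median was -0.14. Without control 3, 56 were negative, with a median of -0.11. Without knockout 1, 25 were negative, with a median of 0.06, and without control 2, 23 were negative, with a median of 0.05. With 1 library left out, the median ran from -0.12 (without knockout 3) to 0.08 (without knockout 1) for complex I, and from -0.13 to 0.07 without the same libraries for ATP synthase. Without controls 1 and 2 together, whose title numbers stand apart from those of the other 6, only 10 were negative and the median was 0.11. In each of these fits limma called 0 of the 70 genes, and 0, 1, 2, 5 or 9 of them had an unadjusted p under 0.05.

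Within the subunit genes, longer transcripts had lower fold changes. Spearman's rho between log2 fold change and transcript length was -0.66 over the 69 genes, which share their libraries and are not independent replicates. The 32 genes with transcripts of at most 700 bases had a median of 0.03, the 21 with 700 to 1500 bases one of -0.06, and the 16 above 1500 bases one of -0.17, with 14 of the 16 negative. Sdha, Ndufab1, Uqcrc2 and Ndufv1 are among the long ones. Within complex II the only transcript above 1500 bases is that of Sdha.

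Among the 13990 other tested genes with a known length, rho was -0.17, and the medians in the same length classes were 0.11, 0.09 and 0.01. Knockout 3 stood apart in this respect. Over the 355 other genes of at most 700 bases, its log2 level was a median of 0.33 above each gene's mean over the 4 controls. Knockouts 1, 2 and 4 were at -0.05, 0.10 and 0.08. The controls, which set that mean, were at -0.04 to 0.04. Without knockout 3 rho was 0.01 over the other genes and -0.63 over the subunit genes. Without controls 1 and 2, it was -0.24 over the other genes and -0.58 over the subunit genes. RNA quality of the libraries is not given in the sources used here, and its part in this relation was not tested.

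**Figure D5:**
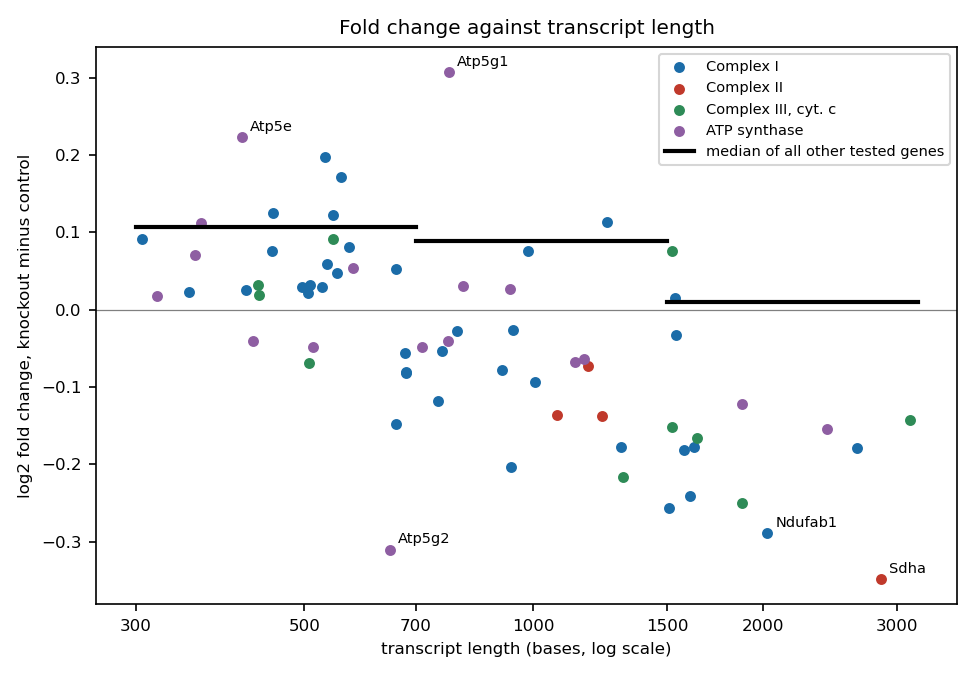
Log2 fold change (knockout minus control) of each of 69 subunit genes against the length of its transcript in bases (log scale), coloured by complex. Black lines are the medians of all other tested genes of at most 700, 700 to 1500 and over 1500 bases, and 14 of the 16 subunit genes over 1500 bases lie below 0.

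The genes that build and supply these complexes were followed with lists of the rest of the pathway. Of 17 complex I assembly factors, limma called 0 at an adjusted p of 0.05, as did edgeR and DESeq2. In limma, 1 was higher (Ndufaf5) and 2 were lower (Foxred1 and Tmem186) at an unadjusted p under 0.05. Over all genes 8.84% were higher and 5.68% lower by that rule. Ndufaf5, a methyltransferase-like factor that modifies Ndufs7, had 176, 203, 171 and 169 in the controls and 203, 250.3, 273 and 247 in the knockouts (log2 fold change 0.43, SE 0.119, limma adjusted p = 0.128). The assembly factors of complex II (4 genes), complex III (7) and ATP synthase (7) gave 0 calls and 0 genes at an unadjusted p under 0.05 in limma, edgeR and DESeq2.

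Most genes of the coenzyme Q pool had negative fold changes. Of 13 genes of coenzyme Q synthesis, 9 were negative and 5 were lower at an unadjusted p under 0.05 (Coq3, Coq5, Coq6, Coq7 and Coq9), and across all genes 5.68% were lower by that rule. Their median log2 fold change was -0.19. Limma called 0 of them, edgeR 0 and DESeq2 1 (Coq7), the last among 776 of all genes. Coq7, which hydroxylates the ring before its last methylation, had 389, 373, 307 and 318 in the controls and 215, 225, 316 and 174 in the knockouts (log2 fold change -0.60, SE 0.171, limma adjusted p = 0.139). Knockout 3 lay within the control range. Without it limma called 1 gene of the list, Coq7 (adjusted p = 0.0159), among 449 of all genes. Without controls 1 and 2, in contrast, the median of the list was -0.00 and 0 genes were lower at an unadjusted p under 0.05.

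Other dehydrogenases that feed electrons into coenzyme Q had a median of -0.41 over 8 genes. At an unadjusted p under 0.05 in limma, 5 were lower (Etfa, Etfdh, Sqor, Prodh and Chdh), against 5.68% of all genes. Limma and edgeR called 0 of the 8, and DESeq2 called 2, Sqor and Chdh, among 776 of all genes. Sqor, the sulfide oxidase, had 1407, 2044, 1686 and 1684 in the controls and 1386, 1021, 1125 and 1143 in the knockouts, without overlap (log2 fold change -0.54, SE 0.126, limma adjusted p = 0.0802). Chdh, choline dehydrogenase, had 1496, 1632, 1419 and 1401 in the controls and 1205, 858, 642 and 1067 in the knockouts, also without overlap (-0.69, SE 0.171, limma adjusted p = 0.0935). Etfdh, which takes electrons from fatty acid oxidation, had 3003, 3639, 1891 and 2151 in the controls and 1787, 1919, 2022 and 1724 in the knockouts, with controls 1 and 2 far above the rest. Without those 2 controls the list median was -0.15 and 3 of the 8 were lower at an unadjusted p under 0.05.

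Among 16 regulators of mitochondrial biogenesis, 1 gene passed the threshold in limma, as did 1.64% of all genes. Esrrb, an estrogen-related receptor, had 8.79, 7.37, 11.8 and 18.6 in the controls and 27.3, 40.3, 57.1 and 48.9 in the knockouts (log2 fold change 1.84, SE 0.324, limma adjusted p = 0.0238). Controls 1 and 2 lay below 10, the value that the filter required in 4 libraries, so the size of this difference is uncertain. Esrrb did not pass without those 2 controls, where the lowest adjusted p of the list was 0.170. Its relative Esrra, measured at far higher values (1243 ± 87.3 in the controls and 1263 ± 193 in the knockouts, SD, n = 4 each), had a log2 fold change of 0.01. The coactivator Ppargc1b had 148, 269, 164 and 183 in the controls and 153, 84.9, 79.6 and 96.4 in the knockouts (log2 fold change -0.89, SE 0.240, limma adjusted p = 0.119), and DESeq2 called it. Its relative Ppargc1a had a positive log2 fold change of 0.38 (SE 0.223, limma adjusted p = 0.484). Esrrg was also positive, at 0.60 (SE 0.274, limma adjusted p = 0.352).

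Of the other factors whose motifs were searched in the promoters, Nrf1, Gabpa and Yy1 were not called. Log2 fold changes were -0.04 for Nrf1, -0.09 for Gabpa and -0.13 for Yy1, with limma adjusted p-values of 0.873, 0.683 and 0.41, although the Yy1 values of the groups did not overlap (869 to 931 in the controls and 806 to 850.2 in the knockouts). Expression of mitochondrial DNA was represented by 11 genes, of which Tfam, Tfb2m and Polrmt are also among the regulators above. Limma called 0 of the 11, edgeR 0 and DESeq2 1 (Lrpprc), the last among 776 of all genes. At an unadjusted p under 0.05 in limma, 3 were lower, against 5.68% of all genes. Lrpprc, which stabilises mitochondrial messenger RNAs, had 1229, 1187, 1099 and 1113 in the controls and 959, 1007, 946 and 961 in the knockouts, without overlap (log2 fold change -0.26, SE 0.068, limma adjusted p = 0.111). Of 6 supercomplex and hypoxia factors, limma called 0, with a median of 0.02 and 0 at an unadjusted p under 0.05.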

How the data were processed

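RNA of 8 libraries was analysed, 4 per genotype. The submitters' processing notes and the design text name TopHat (version 2) and mm10 for alignment, HOMER for counting, and edgeR and DESeq for tests. HOMER's version, its annotation, strand setting and scaling: not given in the sources used here. The authors deposited a signal per RefSeq accession that is not whole counts. Within each library the values were whole multiples of 1 step, from 0.442 to 0.545, for 99.99 to 100% of values within a tolerance of 0.02 reads, and dividing by it gave the recovered reads. Even multiples made up 54.0 to 56.2% of multiples up to 40, so a step may be 1 end of a read pair.

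Of 23373 rows, 1 had no accession and held 0. Accessions were matched to symbols through RefSeq GRCm38.p6 (22523) or GENCODE M21 (128), and the other 721, with 1.64% of the total, kept their accession. For 12 symbols with several rows the highest was kept. Values are log2(value + 1), tested with limma 3.58.1 (mean-variance trend, no term but genotype) on the 14591 genes that reached 10 in 4 or more libraries, adjusted by Benjamini-Hochberg over all of them, threshold 0.05. Fold changes are on that scale. Alternatives used edgeR 4.0.16 (quasi-likelihood), DESeq2 1.42.0 and limma-voom on recovered reads, other pseudocounts, filters and scalings, all rows, marker levels as covariates, and libraries left out. R was 4.3.3 and Python 3.11.15. The test was checked on simulated data.

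Lengths and runs of 50 bases come from the GENCODE transcript matched to each accession (69 of 70), the longest where several matched, within its RefSeq locus. Coordinates are those of GRCm38.p6, the base assembly of mm10. Genes named were those with set roles in each complex, the extremes and the highest of each complex, near copies, and from other lists those past the threshold and a few well-known or lower ones, some of them chosen after their values were seen. A gene counted in the summaries is not reported here by name. The genes and lists were chosen with earlier results of these data known. Libraries of 1 group differed by more than counting error (chi-square over degrees of freedom 24.5 to 130), so no file repeats another, which does not show that they are separate mice.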

Additional observations from a re-analysis of the deposited data

Results flagged for a closer look

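Of 152 sets of 4 libraries examined (each subunit gene, Kdm1a, Atpif1 and the mean of each complex, by genotype), 1 had a library far from the others by Dixon's 95% criterion, although chance marks about 1 set in 20. Ndufb3, a complex I accessory subunit, was at 1917 in control 2, and the other controls lay between 1543 and 1592. The gap was 0.870 of the range, above the critical value for 4 libraries. Control 2 was also the highest library for 26 of the 69 subunit genes.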

How the results depend on the processing

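None of the 70 genes was called in any of 24 alternatives, which include edgeR, DESeq2 and limma-voom with 2 genes each at an unadjusted p under 0.05. The lowest adjusted p of any of them was 0.0786 (Sdha, DESeq2). Signs were less stable: 14 of 70 genes never changed sign, and 15 did so in at least 5 alternatives. Over all genes the calls, 239 in the report, were 776 with DESeq2, 140 with the B cell marker level as a covariate, 97 without controls 1 and 2, and 87 to 449 when 1 library was left out.

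Kdm1a was lower in every alternative but missed the threshold at a pseudocount of 0.5 (-0.36, adjusted p = 0.0503), without a filter (-0.36, 0.0582), with a filter of 50 (-0.36, 0.0501), at equal totals (-0.35, 0.0704), without controls 1 and 2 (-0.43, 0.114), with the muscle covariate (-0.39, 0.0748), and with any 1 library left out (-0.39 to -0.31). With the muscle covariate the median was 0.19 for ATP synthase, 0.20 for complex I, 0.12 for complex III and 0.03 for complex II, and the cause was not tested.

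Signs reversed, none past the threshold and with the cause not tested, as follows. Without controls 1 and 2: Ndufs1 0.049, Ndufs3 0.15, Ndufs7 0.014, Ndufv2 0.16, Sdhb 0.065, Sdhc 0.019, Sdhd 0.045, Uqcrc1 0.053, Uqcrfs1 0.019, Cyc1 0.044, Cycs 0.093, Atp5a1 0.061, Atp5b 0.059, Atp5c1 0.048 and Atp5g3 0.032. With the muscle covariate: Ndufs3 0.11, Ndufs7 0.16, Ndufv2 0.14, Ndufa4l2 0.19, Sdhc 0.12, Sdhd 0.069, Cyc1 0.046, Cycs 0.13, Atp5c1 0.038 and Atp5g3 0.17. With the brown and beige covariate, Ndufs3 was 0.019 and Ndufv2 0.023, and with the B cell covariate 0.076 and 0.047. With 1 library left out, ranges were -0.13 to 0.049 (Ndufv2), -0.18 to 0.027 (Atp5g3), -0.12 to 0.0696 (Ndufs3), -0.17 to 0.026 (Ndufs7), -0.17 to 0.022 (Sdhc), -0.13 to 0.00014 (Atp5c1), -0.071 to 0.14 (Ndufa4), -0.095 to 0.12 (Atp5d), -0.0703 to 0.19 (Uqcrq), -0.30 to 0.0604 (Cycs), -0.026 to 0.15 (Ndufs8) and -0.036 to 0.18 (Uqcrh).

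Limiting the medians to genes with at most 30% shared runs of 50 bases, an alternative chosen after the data were seen, gave -0.04 for complex I and -0.01 for ATP synthase. No paired analysis was possible because the sample numbers in the titles are not shared between genotypes.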
